A study of Mus musculus with 4 samples.

Results

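The genes described here are 40 imprinted genes of the mouse, followed in cultured spermatogonial stem cells with and without doxycycline. They were chosen by symbol from a list of known imprinted genes, with earlier results of these data in view, and all 40 were found among the 22552 symbols of the tables. The cells came from testes of 5 to 7-day-old DBA/C57 F1 males and are single-cell clones in which doxycycline induces a knockout of the microRNA miR-202. After a night on laminin, 2 libraries were made after 2 days with 10 µg/ml doxycycline and 2 from cells kept the same time without the drug. The series' design text names 2 clones, iKO-SC-1 and iKO-SC-2, in each condition, and same-numbered libraries were read here as 1 clone, although the titles leave this unsaid. The genotype given for each of the 4 is wild type, and every library comes from cells with the inducible system, so no library without it is part of the comparison.

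Imprinted genes are transcribed mainly from the copy inherited from one parent. The choice is set by DNA methylation laid down at control regions in the egg or the sperm lineage. In male germ cells the inherited marks are erased in the embryo, and the paternal pattern is written before birth, so that spermatogonial stem cells are known to carry paternal-type marks on both copies. The control regions of the Igf2-H19, Dlk1-Dio3 and Rasgrf1 loci are methylated in the male germ line, and those of most other loci in the egg. The deposited values do not separate the parental copies, so "paternal" and "maternal" below name the copy that is usually expressed in the body and not a measurement. In some of these genes imprinting is limited to certain tissues, such as brain for Ube3a and placenta for Ascl2, Cd81 and Dcn.

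The values are FPKM, fragments per kilobase of transcript scaled to the library's mapped fragments, and summed to between 309153 and 320243 in a library. The tables used here hold no read counts. From the step size of the smallest values, depth relative to doxycycline replicate 1 was 1.325 for untreated replicate 1, 1.225 for doxycycline replicate 2 and 1.54 for untreated replicate 2, which makes the treated library the shallower one for either number. The knockout's target Mir202 had a listed value of 0 throughout and checks neither the knockout nor the labels. The 12 germ cell markers were all measured, with a summed level of 1100 to 1150 FPKM and Dazl, a germline RNA-binding protein, highest at 284 to 300. The 14 markers of fibroblast feeders summed to 196 to 212 FPKM, with fibronectin (Fn1) highest at 53.3 to 56.7.

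The imprinted genes spanned a wide range of levels. Of the 40, 29 averaged 1 FPKM or more across libraries, and these were tested among 11924 genes in all. Gnas, which encodes the stimulatory G protein alpha subunit and has imprinted alternative transcripts, was the highest, at 126 and 143 FPKM with doxycycline and 120 and 130 without, above 97.5% of tested genes. Cdkn1c, a cyclin-dependent kinase inhibitor that restrains fetal growth, followed at 77.8 and 78.7 with the drug and 77.3 and 73.6 without. H19, the long noncoding RNA beside Igf2, came next by mean level at 54.3 FPKM, above 89.9% of tested genes. It is usually transcribed from the maternal copy. Mest, Cd81, Nnat, Igf2r, Copg2, Ndn and Igf2 lay between 24.9 and 49.8 FPKM in mean, and the other 19 tested genes between 1.18 and 15.9.

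**Figure D1:**
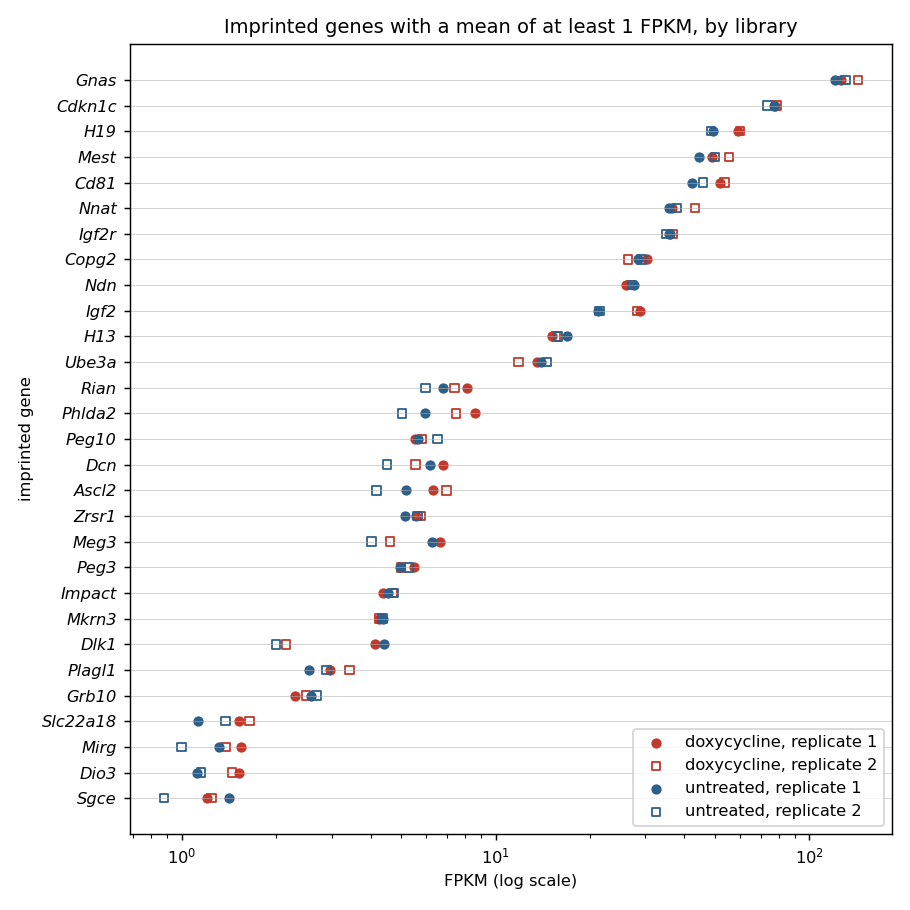
FPKM of the 29 imprinted genes averaging 1 FPKM or more, on a log scale, with 1 point for each library; filled symbols are replicate 1, open symbols replicate 2, red doxycycline and blue untreated. Means run from 1.18 FPKM for Sgce to 130 for Gnas. The red and blue points stand apart for Igf2 and H19, while Dlk1 and Meg3 divide by replicate number. Red and blue also do not overlap for several other genes, among them Phlda2, Rian, Ndn and H13.

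The 11 genes below 1 FPKM were not tested. Their means reached 0.962 FPKM, for the Ras exchange factor gene Rasgrf1, with Usp29 at 0.839 and Peg12 at 0.718 next. Rasgrf1 stood at 0.989 and 1.03 with doxycycline and 0.938 and 0.893 without, and Usp29 at 0.803 and 0.842 against 0.766 and 0.945. Peg12, a retrogene of the Snrpn cluster, stood at 0.586 and 0.511 in treated and 0.924 and 0.850 in untreated libraries, so that its 2 groups did not overlap. Asb4, Zim1, Kcnq1, Nap1l5, Kcnq1ot1 and Magel2 had means between 0.109 and 0.624 FPKM. Kcnq1ot1, the long RNA that silences its neighbours in cis on the paternal chromosome, was at 0.164 to 0.192 in the 4 libraries.

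Snrpn and Airn, singled out after their values were seen, do not give a usable level. Snrpn, a component of the splicing machinery, was listed at 1.99e-07 to 5.81e-07 FPKM, while Snurf, which shares its transcript and overlaps its locus, was at 8.81 and 10.6 FPKM with doxycycline and 10.4 and 11.9 without. Airn, the long RNA that silences Igf2r in cis on the paternal chromosome, was at 0.142 and 1.29 with the drug and 0.604 and 0.122 without, and its locus overlaps that of Igf2r at 35.0 to 36.6 FPKM. The strand setting of the authors' counting is not given in the sources used here, so reads of overlapping genes on opposite strands cannot be told apart. The loci of Mest and Copg2, Nnat and Blcap, H13 and Mcts2, Zrsr1 and Commd1, and Igf2 and Igf2as overlap as well. The strands of these pairs were not compared.

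With doxycycline, Igf2 was the imprinted gene that rose, and its neighbour H19 lay just outside the threshold. At an adjusted p under 0.05 in limma over all genes, 1 of the 29 tested imprinted genes was higher and none lower, against 0.218% of all tested genes higher and 0.0587% lower. With the replicate number as a block, 4 of the 29 were higher, namely Igf2, H19, Phlda2 and Cd81, and none lower, against 2.73% and 0.973% of all genes. At an unadjusted p under 0.05 there were 6 of the 29 (20.7%) without the block, against 15.1% of all genes, and 11 (37.9%) with it, against 22.4%. In both same-numbered pairs 17 of the 29 were higher and 7 lower, where 32.8% and 34.0% of all genes were. The median log2 change of the 29 was 0.10, with 0.09 in the replicate 1 pair and 0.15 in the replicate 2 pair, and that of all tested genes was -0.002. Every log2 value here is of FPKM + 1, a scale on which changes of low genes look smaller than they are.

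Igf2, which encodes a secreted growth factor that acts through the IGF1 and insulin receptors, measured 29.0 and 28.2 FPKM in the treated libraries and 21.1 and 21.5 in the untreated ones. Both treated libraries lay above both untreated ones, and libraries of the same treatment lay close together. The mean rose from 21.3 ± 0.230 to 28.6 ± 0.549 FPKM (SD, n = 2 each), which is 1.34-fold, with 1.37-fold in the replicate 1 pair and 1.31-fold in the replicate 2 pair. On the log2 scale this was 0.41 ± 0.04 (SE), at a limma adjusted p of 0.0334, or 0.00505 with the block. When any single library was left out, the log2 change stayed between 0.39 and 0.43 while the adjusted p ran from 0.068 to 0.197, and with no filter on low values it was 0.234. Igf2 lies on chromosome 7 from 149836673 to 149846940 (mm9).

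H19 measured 59.4 and 60.1 FPKM in the treated libraries and 49.2 and 48.5 in the untreated ones. Again the groups did not overlap, and the difference between treatments was far larger than that between libraries of the same treatment. Its mean was 59.8 ± 0.455 against 48.9 ± 0.459 FPKM (SD, n = 2 each), a 1.22-fold difference with a log2 change of 0.29 ± 0.04 (SE). The limma adjusted p was 0.0578, and 0.0115 with the block. H19 lies on chromosome 7 from 149761437 to 149764051 (mm9). In the body H19 and Igf2 share enhancers and are expressed from opposite parental copies, and here the level of each was higher with the drug in both pairs. In bulk RNA, a change in the share of cells that express a gene and a change in RNA per cell cannot be told apart.

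Beyond Igf2 on distal chromosome 7 stands the Kcnq1 cluster, of which 5 of 7 listed genes were tested. None of the 5 passed without the block and 2 rose with it, while all 5 had higher values with doxycycline in both pairs. Of all tested genes, 2.73% rose with the block and 32.8% were higher in both pairs. Phlda2, a pleckstrin-homology protein that limits placental growth, was at 8.61 and 7.48 FPKM with the drug and 5.97 and 5.03 without. Its mean was 1.46-fold that of the untreated libraries, with a log2 change of 0.48 ± 0.10 (SE), which missed the threshold in limma (adjusted p = 0.145) and passed with the block (0.0112). Cd81, a tetraspanin of the cell surface, was at 51.9 and 53.7 against 42.2 and 45.9 FPKM, 1.20-fold, with a log2 change of 0.26 ± 0.05 (SE) that passed only with the block (adjusted p = 0.131 without it and 0.0190 with it). For both genes the treated and untreated libraries did not overlap. This was also so for Ndn, Mkrn3, Ube3a, Grb10 and H13, which were lower with doxycycline. The share of all tested genes without overlap was not computed, so non-overlap is only a description here, above and below.

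Ascl2, a basic helix-loop-helix factor of the trophoblast, was at 6.31 and 6.98 FPKM with doxycycline and 5.17 and 4.17 without. It had a log2 change of 0.43 ± 0.10 (SE) and passed in neither fit (limma adjusted p = 0.177, and 0.0576 with the block). Its change was uneven, 1.22-fold in the replicate 1 pair and 1.67-fold in the replicate 2 pair. Slc22a18, an organic cation transporter-like protein, was at 1.52 and 1.64 against 1.13 and 1.38 FPKM and did not pass either, with a log2 change of 0.20. For Cdkn1c the log2 change was 0.05 ± 0.04 (SE; limma adjusted p = 0.594, and 0.480 with the block). It stood between genes with larger changes, and its treated values of 77.8 and 78.7 FPKM lay just above the higher untreated one of 77.3.

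The 7 listed genes of the Kcnq1 cluster and the 2 of the Igf2-H19 cluster lie within 0.927 Mb, from H19 to the end of Phlda2 at 150688429 on chromosome 7 (mm9). This stretch was looked at after the values were seen. Of these 9 genes 7 were tested, and the 7 were higher in both pairs, where 32.8% of all tested genes were. The median log2 change of the 7 was 0.29, with changes from 0.05 to 0.48. The 2 untested ones were not higher in both pairs. Kcnq1, a potassium channel gene, was at 0.157 and 0.401 FPKM with doxycycline and 0.214 and 0.234 without, and Kcnq1ot1 at 0.175 and 0.164 against 0.172 and 0.192. The stretch also holds 9 symbols that are not among the listed genes, of which 2 were tested. Tssc4, which is imprinted in placenta, was at 16.9 and 16.3 FPKM with doxycycline and 19.11 and 18.7 without, a log2 change of -0.17 (limma adjusted p = 0.214). R74862, whose locus overlaps that of Cd81, was at 1.06 and 0.894 against 1.04 and 1.18 FPKM. The stretch begins 2.62 Mb beyond Mir202 on the same chromosome, and whether that distance bears on the values was not tested.

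**Figure D2:**
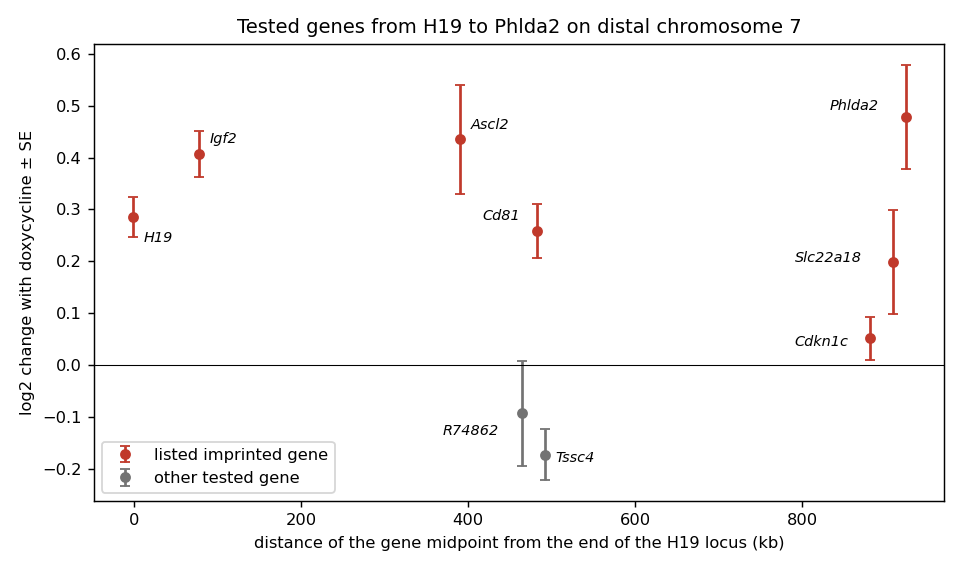
Log2 change with doxycycline ± SE on the log2(FPKM + 1) scale (vertical) of the 9 tested genes from H19 to Phlda2 against the distance of their midpoints from the end of the H19 locus in kb (horizontal); red marks the listed imprinted genes and grey the others. The 7 tested genes of the list lie between 0.05 and 0.48. Tssc4, which is imprinted in placenta but not in the list, and R74862 lie below 0.

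The start regions of the genes of this stretch that passed in a fit are shown because they changed in the same direction. RefSeq promoter windows of 300 bases were at hand for Igf2, Phlda2 and Cd81, and not for H19. They are from build GRCm38.p6, whose coordinates differ from the mm9 positions above, are read 5′ to 3′ on the gene's strand, and have every CpG in capitals. They lie at chr7:142658755-142659054 on the minus strand for Igf2, chr7:143502475-143502774 on the minus strand for Phlda2 and chr7:143052500-143052799 on the plus strand for Cd81. Igf2 has 4 windows, of which the one with the most CpG is shown. Which start was in use cannot be read from a value per gene.
Igf2: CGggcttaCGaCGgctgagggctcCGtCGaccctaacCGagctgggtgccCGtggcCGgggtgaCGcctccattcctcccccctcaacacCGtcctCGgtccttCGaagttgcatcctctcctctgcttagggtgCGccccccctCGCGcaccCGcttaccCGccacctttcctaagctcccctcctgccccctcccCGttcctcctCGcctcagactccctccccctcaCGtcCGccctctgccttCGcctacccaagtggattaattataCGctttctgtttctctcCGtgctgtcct
Phlda2: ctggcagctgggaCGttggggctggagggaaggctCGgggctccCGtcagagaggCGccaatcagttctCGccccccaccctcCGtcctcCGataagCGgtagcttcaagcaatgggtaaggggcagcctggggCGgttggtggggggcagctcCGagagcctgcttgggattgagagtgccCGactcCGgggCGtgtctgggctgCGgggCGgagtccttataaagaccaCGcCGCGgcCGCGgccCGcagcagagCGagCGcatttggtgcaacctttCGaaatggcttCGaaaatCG
Cd81: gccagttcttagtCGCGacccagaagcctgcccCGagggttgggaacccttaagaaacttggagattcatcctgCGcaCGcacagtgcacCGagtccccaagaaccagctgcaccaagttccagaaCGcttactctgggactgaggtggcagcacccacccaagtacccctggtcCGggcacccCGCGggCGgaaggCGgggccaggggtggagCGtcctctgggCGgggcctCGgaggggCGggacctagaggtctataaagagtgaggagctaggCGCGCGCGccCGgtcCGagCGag

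These windows hold 24, 26 and 23 CpG, above 80.0%, 83.1% and 78.5% of all 32851 RefSeq promoter windows, whose median is 7. The other 3 windows of Igf2 hold 2, 14 and 7, so its place among all windows rests on the window shown. CpG is the dinucleotide that carries DNA methylation. The 47 windows of the 33 imprinted genes with an entry outside chromosome 18 had a median of 14. Several starts of a gene were counted separately, and some of these overlap. TGCCGC, the core that the imprint-protecting protein ZFP57 binds when methylated, was found on either strand in 11 of the 47 (23.4%) against 11.6% of all windows. It was in none of the 3 shown, and in 1 of the other windows of Igf2. GGGCGG, the GC box, was in 24 (51.1%) against 35.7%, the 3 shown included, and TATAAA in 11 (23.4%) against 13.6%, Phlda2 and Cd81 among them. The first 2 strings can share bases. Both hold a CpG, and no share was computed among windows of like CpG number. A match is a description of the letters and no test was made of it.

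The Dlk1-Dio3 cluster on chromosome 12 was less even. Its usually maternal long RNAs were Meg3, at 6.63 and 4.61 FPKM with doxycycline and 6.29 and 4.03 without, Rian, at 8.13 and 7.39 against 6.80 and 5.99, and Mirg, at 1.55 and 1.38 against 1.32 and 0.998. Rian and Mirg are hosts of small RNAs. In Rian and Mirg both treated libraries lay above both untreated ones, with log2 changes of 0.25 ± 0.08 and 0.19 ± 0.11 (SE) that did not pass (limma adjusted p = 0.267 and 0.451, and 0.0767 and 0.275 with the block). Meg3 overlapped between treatments, with a log2 change of 0.11 ± 0.21 (SE). Dio3, the deiodinase that inactivates thyroid hormone, was at 1.52 and 1.45 against 1.12 and 1.15 FPKM, a log2 change of 0.22 ± 0.09 (SE) that did not pass (adjusted p = 0.332). Dlk1, a transmembrane protein related to Notch ligands, was at 4.12 and 2.15 against 4.41 and 1.99 FPKM, with a larger gap between replicate numbers than between treatments.

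Genes of the Snrpn cluster on chromosome 7 lay slightly lower. Necdin (Ndn), a growth-suppressing MAGE protein, was at 26.0 and 27.1 FPKM with doxycycline and 27.7 and 27.2 without. The ubiquitin ligase genes Mkrn3 and Ube3a were at 4.25 and 4.27 against 4.39 and 4.36 FPKM and at 13.6 and 11.8 against 14.0 and 14.6 FPKM. All 3 were lower in both pairs, as were 34.0% of all tested genes. The log2 changes of Ndn, Mkrn3 and Ube3a were -0.05, -0.03 and -0.16, and none passed in limma (adjusted p = 0.650, 0.866 and 0.375). The neighbouring Snurf had a log2 change of -0.18 (adjusted p = 0.432). Ndn, Mkrn3 and Ube3a differed by less than 0.1 in the replicate 1 pair, and Ube3a by -0.28 in the replicate 2 pair.

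Of the remaining tested genes none passed in either fit. Mest, a hydrolase-like protein of mesoderm, was at 49.1 and 55.5 FPKM with the drug and 44.5 and 50.0 without, 1.10-fold and 1.11-fold in the pairs, and Copg2, a coatomer subunit, at 30.3 and 26.4 against 28.5 and 29.2. The transcription factor gene Plagl1 was at 2.96 and 3.42 against 2.54 and 2.89 FPKM. The groups of Plagl1 did not overlap, but the gap was small. Nnat, a small membrane proteolipid, was at 36.5 and 43.3 against 35.6 and 37.9, and the zinc finger gene Peg3 at 5.50 and 5.00 against 4.96 and 5.29 FPKM.

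Igf2r, the receptor that takes up IGF2 for degradation, was at 35.6 and 36.6 FPKM with doxycycline and 35.9 and 35.0 without, a log2 change of 0.03 ± 0.04 (SE; limma adjusted p = 0.799). The ligand gene Igf2 thus changed by 0.41 and the gene of its clearance receptor by 0.03 on the same scale. Grb10, an adaptor that dampens insulin and IGF signalling, was at 2.29 and 2.49 against 2.59 and 2.69 FPKM (log2 change -0.10, adjusted p = 0.610). Peg10, a gene derived from a retrotransposon, was at 5.54 and 5.83 against 5.66 and 6.53, and Sgce, epsilon-sarcoglycan, at 1.20 and 1.24 against 1.41 and 0.879 FPKM. These values show no common direction in the Peg10-Sgce cluster.

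Impact, a regulator of the GCN2 kinase pathway, was at 4.37 and 4.71 FPKM with doxycycline and 4.55 and 4.72 without. Zrsr1, a splicing factor-related retrogene, was at 5.58 and 5.80 against 5.16 and 5.64, and H13, a signal peptide peptidase, at 15.2 and 15.6 against 16.8 and 15.8 FPKM. Gnas had a log2 change of 0.10 ± 0.07 (SE). Dcn, the matrix proteoglycan decorin, was at 6.80 and 5.55 against 6.19 and 4.51 FPKM (log2 change 0.18 ± 0.15, SE; limma adjusted p = 0.588). For Impact, Zrsr1, Gnas and Dcn the treated and untreated libraries overlapped.

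**Figure D3:**
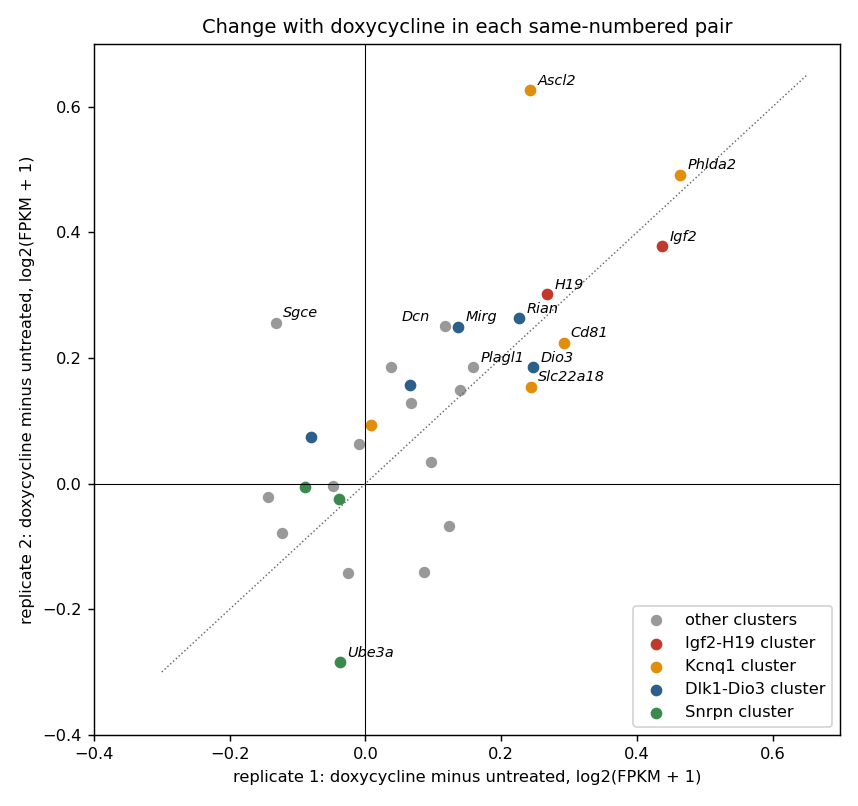
Change with doxycycline in log2(FPKM + 1) for the 29 tested imprinted genes, in the replicate 1 pair (horizontal) and the replicate 2 pair (vertical), with 1 point for each gene, colours for 4 clusters and a dotted line of equal change. Igf2, H19, Phlda2 and Cd81 lie to the upper right near the line, Ascl2 changed by 0.24 and 0.63, and the 3 Snrpn cluster genes lie below 0 in both pairs.

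Grouped by the copy usually expressed, 15 maternal genes had a median log2 change of 0.18, with 10 higher and 3 lower in both pairs, and 13 paternal genes one of 0.06, with 6 higher and 4 lower. Of the paternal genes Igf2 rose in both fits, and with the block the 3 maternal genes H19, Phlda2 and Cd81 rose as well. Of all tested genes 0.218% rose without the block and 2.73% with it. All 4 genes lie in the stretch from H19 to Phlda2. Grouped by the germ line in which the control region is methylated, the 7 tested genes of male-methylated loci, all from the Igf2-H19 and Dlk1-Dio3 clusters, had a median change of 0.22, and in both pairs 6 were higher and none lower. The 21 genes of egg-methylated loci had a median of 0.05, with 10 higher and 7 lower. Of all tested genes, 32.8% were higher and 34.0% lower in both pairs. These medians and counts are descriptions, since genes of a cluster are not independent and the groups were set with earlier results known.

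Among 21 genes that write, read or protect imprints, 19 were tested and none passed over all genes. Their median log2 change was -0.02, with 6 higher and 8 lower in both pairs, where 32.8% and 34.0% of all tested genes were. Eed, a Polycomb subunit, was at 47.1 and 50.5 FPKM with doxycycline and 41.3 and 43.0 without, a log2 change of 0.21 that passed only with the block (limma adjusted p = 0.173 and 0.0362). Trim28, the corepressor that ZFP57 recruits, was the most abundant at 147 to 160 FPKM, with a log2 change of -0.06. The germ cell CTCF paralogue gene Ctcfl was at 2.58 and 2.61 against 2.76 and 3.38 FPKM (log2 change -0.17), and Kdm1b, a histone demethylase, had a log2 change of 0.13; neither passed. Of 40 further imprinted genes, 22 were tested and none passed in either fit. Their median was 0.02, with 10 higher and 8 lower in both pairs, against the same shares of all genes. Ddc, Trappc9 and Tssc4 had the largest changes, at -0.30, -0.22 and -0.17, and Nap1l4, the most abundant, was at 112 to 122 FPKM with a log2 change of 0.04.

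Between replicate numbers, Dlk1 stood out from the other imprinted genes. It was at 4.12 and 4.41 FPKM in the replicate 1 libraries and at 2.15 and 1.99 in those of replicate 2, with doxycycline first. The libraries of each number lay close together and far from the others, with means of 4.27 ± 0.206 and 2.07 ± 0.111 FPKM (SD, n = 2 each), a 2.06-fold difference and a log2 difference of -0.78 ± 0.09 (SE) for replicate 2 minus replicate 1. In limma without a treatment term no gene passed (0.0% of 11924), Dlk1 having an adjusted p of 0.243, while 535 genes (4.49%), 3 of the 29 imprinted ones (10.3%) among them, had an unadjusted p under 0.05. With treatment as a covariate, 18 genes passed (0.151%), and Dlk1 was the imprinted gene among them (adjusted p = 0.0348). Dlk1 lies on chromosome 12 from 110691033 to 110701546 (mm9).

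Meg3, the neighbour of Dlk1, was at 6.63 and 6.29 FPKM in replicate 1 and at 4.61 and 4.03 in replicate 2, which is 1.50-fold higher in replicate 1. Its log2 difference was -0.49 ± 0.09 (SE) and did not pass (limma adjusted p = 0.786, and 0.0592 with treatment as a covariate). Dcn differed 1.29-fold the same way (log2 difference -0.32 ± 0.11, SE; adjusted p = 0.998 and 0.132). The farther genes of the Dlk1-Dio3 cluster differed less, with -0.14 for Rian, -0.16 for Mirg and -0.01 for Dio3. Igf2 and H19 had log2 differences of -0.01 and -0.002. The median over the 29 genes was -0.01, against 0.01 over all tested genes, and Mest and Nnat had the largest differences in the other direction, at 0.17 and 0.16.

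**Figure D4:**
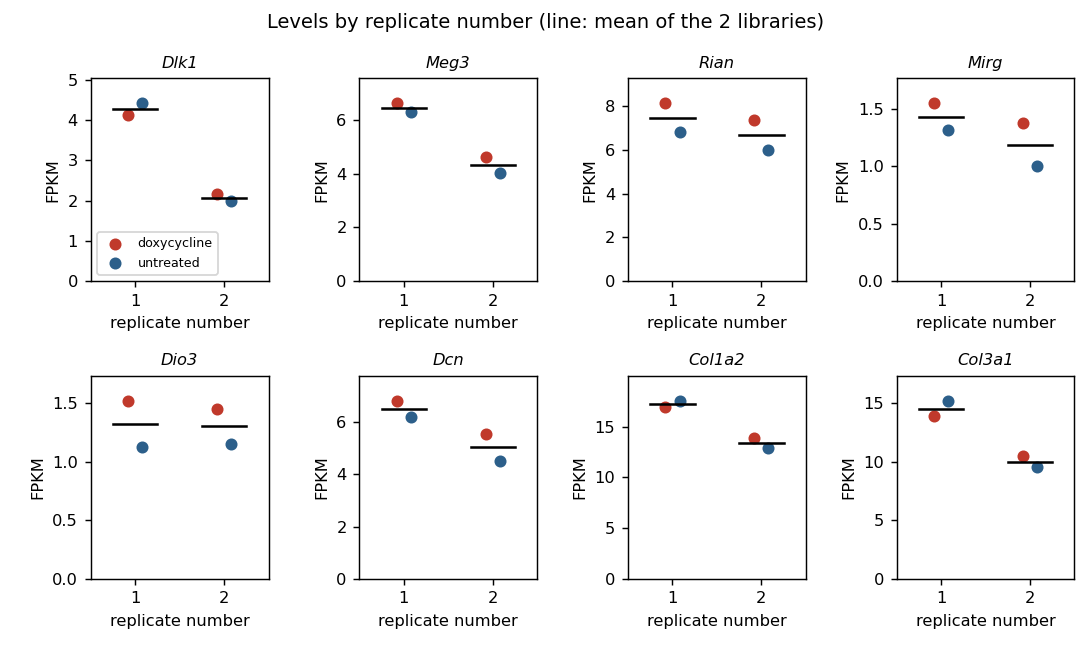
FPKM of the 5 Dlk1-Dio3 cluster genes, of Dcn and of the fibroblast collagens Col1a2 and Col3a1 by replicate number, with red points for doxycycline, blue points for untreated libraries and a line at the mean of the 2 libraries. Dlk1 falls from 4.27 to 2.07 FPKM in mean and Meg3 from 6.46 to 4.32, while Dio3 has means of 1.32 and 1.30. The 2 collagens do not stand for all feeder markers. Tagln and Acta2, not shown, were higher in replicate 2, with log2 differences of 0.48 and 0.45, and the median of the 13 tested was -0.09.

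Marker genes of other cells moved partly in the same direction as these genes. In the feeder list, Col3a1 was at 13.9 and 15.2 FPKM in replicate 1 and 10.5 and 9.55 in replicate 2, and Col1a2 at 17.0 and 17.5 against 13.8 and 12.9. Lum had a log2 difference of -0.36. These are the same direction as Dlk1, Meg3 and Dcn, whereas Tagln, at 8.50 and 10.2 against 12.4 and 14.4, and Acta2, at 0.45, went the other way. The median difference of the 13 tested feeder markers was -0.09, and Tagln passed with treatment as a covariate (limma adjusted p = 0.0396). The part of feeder cells in the difference between replicate numbers was not tested.

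With doxycycline the feeder list had a median log2 change of -0.02, with summed levels of 209 and 205 FPKM with the drug and 212 and 196 without. Mmp2, a matrix metalloproteinase, was the member that rose, at 13.5 and 12.6 against 8.89 and 8.36 FPKM (log2 change 0.55, limma adjusted p = 0.0478). Acta2 and Lum had the next largest changes, at -0.37 and 0.28, and did not pass. The 10 Sertoli markers summed to 8.57 and 9.89 FPKM with doxycycline and 7.04 and 8.10 without, higher with the drug in both pairs. The 3 tested had a median log2 change of 0.26, and none passed in either fit. Inhbb, an inhibin subunit, was at 3.001 and 3.55 against 2.34 and 2.75 FPKM (log2 change 0.27), and Sox9, the most abundant, at 3.22 and 4.32 against 2.69 and 3.27 (0.26), changes close to those of H19 and Cd81, while Wt1 had one of -0.003. Amh was below 0.13 FPKM and Fshr at 0 in every library. Of the markers below 1 FPKM, Inha was lower with doxycycline in both pairs, at 0.47 and 0.21 against 0.52 and 0.33 FPKM. Dhh was lower in both pairs as well, and Amh, Gata4, Cldn11 and Rhox8 were higher in both. The 8 Leydig and peritubular markers summed to 4.14 to 5.12 FPKM, with Des, the 1 tested, highest at a log2 change of 0.07 and Cyp17a1, Hsd3b1 and Lhcgr at 0, and the 10 macrophage and blood markers to 5.70 to 8.47, with Cd68 highest. Cd68 and Hba-a1, the 2 tested, had log2 changes of 0.15 and 0.23 and opposite signs in the pairs, with Hbb-b1 and Tyrobp at 0. Among germ cell markers Nanos3 fell with the block (log2 change -0.30, limma adjusted p = 0.0413, against 0.212 without it), and Nanos2 and Tex19.1 had the next largest changes, at -0.15 and -0.11. The median of the 12 was -0.06. The part of these cell types in the change of Igf2, H19, Phlda2 and Cd81 was not tested.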

How the data were processed

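Each library has a deposited table of FPKM by gene, with the columns that Cufflinks writes, per the file headers. The submitters' processing notes list TopHat2 2.0.6, Cufflinks 2.0.2, Cuffdiff and mm9, with no role for any. Annotation and strand setting: not given in the sources used here. Per the labels' protocols, TRIzol RNA went into Illumina libraries read on a HiSeq. Where a symbol had several lines (259 symbols), their FPKM were added. Loci, given by 1 table, count starts from 0 and are printed from 1: with that reading 8005 of 19820 gene spans equalled RefSeq's, against 513.

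Those averaging 1 FPKM or more entered limma 3.58.1 under R 4.3.3, fitted to log2(FPKM + 1), variance trended on level, two-sided, with Benjamini-Hochberg adjustment over 11924 genes and a threshold of 0.05. The fit was run on simulated data, with planted changes larger than any fitted change with doxycycline of an imprinted gene and no clone effect. That run does not show how changes of the size reported here are called. Relative depth was taken from 677 genes below 0.1 FPKM, of which 69.3% to 72.8% had a between-library ratio within 1% of a quotient of small integers. No read counts were recovered. Same-numbered libraries were taken as the same clone from the design text; their deviations from the group means correlated at 0.215 across genes. Residual degrees of freedom were 2, and 1 with the block. With 2 libraries a group, p-values reflect only how these samples differ among themselves. Members and lists were chosen with earlier results of these data known. Values are given for every member of at least 1 FPKM, the 3 highest below it, and in other lists for the most abundant, the 3 largest changes with doxycycline and those that passed. Alternatives were the pseudocount, the filter, quantile normalization, robust moderation, 1 line per symbol, each library left out, and the block or a treatment term. Promoters are from RefSeq (GRCm38.p6) for 33 of the 40 genes, 23 of them tested. Windows of members on chromosome 18, where Impact lies, were left out. Figures were drawn with matplotlib 3.10.9 in Python 3.11.15.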

Additional observations from a re-analysis of the deposited data

Results flagged for a closer look

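In 5 of the 29 tested imprinted genes the change with doxycycline had opposite signs in the replicate 1 and replicate 2 pairs; with 1 pair for each number the difference was not tested. The change in replicate 2 minus that in replicate 1 was 0.39 for Sgce (-0.13 and 0.26), 0.15 for Dlk1 (-0.08 and 0.07) and 0.073 for Igf2r (-0.01 and 0.06) on the log2 scale. It was -0.23 for Copg2 (0.09 and -0.14) and -0.19 for Peg3 (0.12 and -0.07).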

How the results depend on the processing

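The direction of the change with doxycycline of Igf2, H19, Phlda2, Cd81 and Ascl2 was the same under each alternative run. This carries little weight, since in these genes both treated libraries lay above both untreated ones. Leaving out a library, another pseudocount or filter, or the block could then not reverse the sign. Of all tested genes 33 passed, against 1 with no filter on low values, 88 with a filter of 5 FPKM and 441 with the replicate block. Leaving out 1 library gave from 2 to 60, with 60 when doxycycline replicate 1 was absent, 5 for doxycycline replicate 2, 5 for untreated replicate 1 and 2 for untreated replicate 2. Of the imprinted genes 1 passed, against 0 with no filter, 2 with 5 FPKM (Igf2 and H19), 4 with the replicate block and 0 to 0 with a library left out. Of the 33 calls 78.8% were higher, and this was 86.4% with 5 FPKM, 73.7% with the block and 0.0% of the 1 call with no filter. It was 90.0% when doxycycline replicate 1 was left out, 40.0% for doxycycline replicate 2, 20.0% for untreated replicate 1 and 0.0% for untreated replicate 2, and from 78.1% to 83.3% under the other settings. Between replicate numbers, 0 genes passed, against 18 with treatment as a covariate (1 imprinted) and 0 to 3 with a library left out, 3 without doxycycline replicate 2 or untreated replicate 2. The median difference of the imprinted genes there was -0.008, and -0.004 with a pseudocount of 5, -0.002 with no filter, -0.014 with a filter of 5 FPKM, -0.019 under quantile normalization and -0.046 to 0.037 with a library left out. With a library left out fewer libraries entered the fit, and with another filter other genes did. The cause of these shifts was not tested. The change of Dlk1 with doxycycline, -0.003, was 0.004 with a pseudocount of 0.1, and the difference of Igf2r between replicate numbers, 0.001, was -0.014 under quantile normalization. With a library left out, these changes with doxycycline crossed 0: Dlk1 (-0.43 to 0.42), Meg3 (-0.16 to 0.38), Peg3 (-0.03 to 0.085), Impact (-0.07 to 0.018), Copg2 (-0.12 to 0.069), Nnat (-0.008 to 0.23), Peg10 (-0.17 to 0.005), Sgce (-0.12 to 0.24) and Dcn (-0.008 to 0.38). Between replicate numbers these did: Igf2r (-0.031 to 0.033), Igf2 (-0.23 to 0.21), H19 (-0.15 to 0.15), Dio3 (-0.13 to 0.11), Peg3 (-0.081 to 0.042), Ndn (-0.03 to 0.059), Phlda2 (-0.44 to 0.051), Ascl2 (-0.38 to 0.25), Mkrn3 (-0.02 to 0.019), Ube3a (-0.21 to 0.078), Cd81 (-0.064 to 0.23), Slc22a18 (-0.008 to 0.24), H13 (-0.095 to 0.048) and Cdkn1c (-0.074 to 0.02). The number of reads behind each value is unknown, and the deposited bounds of single libraries were not used in any comparison.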
